A study of Mus musculus with 6 samples.

Results

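Integrins, laminins and nidogens are the parts of a system by which cells hold on to the extracellular matrix, and 33 of the 28162 genes in the count table encode a chain of it. The genes were chosen by name, as integrin alpha and beta chains, laminin alpha, beta and gamma chains and nidogens. Itgam, Itgb2, Itgax, Itgal and Itgb5 and the integrin binding proteins were left out, and a mean of at least 5 normalized read counts over the 6 libraries was required. Of 40 matching names, 5 were the genes left out and 2 fell under the minimum, Itgb6 at a mean of 1.2 and Itgb2l at 1.81. Among the lowest above it was Itgae at 12.87. The 33 genes were 15 integrin alpha chains, 5 integrin beta chains, 11 laminin chains and 2 nidogens.

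A laminin is a trimer of 1 alpha, 1 beta and 1 gamma chain, secreted into the basement membrane, the thin sheet of matrix under endothelium and around Schwann cells, muscle fibres and the surface of the spinal cord. Nidogens are rod-like proteins that link the laminin network to collagen IV and perlecan. Integrins are pairs of 1 alpha and 1 beta chain that span the cell membrane and tie the matrix outside to the actin or intermediate filament network inside. In the spinal cord, blood vessels, astrocyte endfeet, the pia and nerve roots all make or bind such matrix.

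All 6 samples came from SOD1G93A mice, which carry a mutant human superoxide dismutase 1 transgene and develop motor neuron disease. An adeno-associated virus (AAV) had been given intrathecally at postnatal day 74, and ventral tissue of the lumbar cord was collected at day 104. The virus carried green fluorescent protein for 3 samples (AAV-GFP, the control) and, for the other 3, neuron-derived neurotrophic factor (AAV-NDNF). Wild-type and uninjected animals were not analysed here, and the promoter and serotype of the vector, the sex and the strain background are not given in the sources used here.

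The libraries held between 15335789 and 20060987 reads assigned to genes. Ndnf, the delivered gene, had 171, 128 and 158 normalized counts after AAV-GFP and 5286, 7077 and 674 after AAV-NDNF. The groups did not overlap, and AAV-NDNF replicate 3 had the lowest value of its group by far. The log2 fold change of Ndnf was 4.27 (SE 0.85), with an adjusted p of 0.53 by limma. By DESeq2 on the recovered reads the adjusted p was 7.66e-05, and in the authors' deposited table it was 8.92e-05. Without AAV-NDNF replicate 3 the log2 fold change was 5.33, with an adjusted limma p of 1.28e-08. Markers of the tissue were present: 6 of 6 motor neuron markers summed to between 6108 and 7419 normalized counts. The sum of 7 of 7 neuron markers was between 152230 and 158420 after AAV-GFP and between 159270 and 187140 after AAV-NDNF, without overlap. All 7 neuron markers had a log2 fold change above 0, with a median of 0.17 and 0 of them past an unadjusted limma p of 0.05. Dorsal horn neuron markers summed to 848, 236 and 836 in AAV-GFP and to 448, 596 and 666 in AAV-NDNF, lowest by far in AAV-GFP replicate 2. In bulk tissue, fewer cells of a type and less RNA per cell cannot be told apart.

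Among the 33 genes a few chains had most of the level. Per kilobase of exon, the mean level over the 6 libraries was 566 for Itgb1, 283 for Itgb8, 186 for Itgav, 168 for Itga3 and 149 for Itgb4. Of the integrins left out of the choice, Itgb5 lay higher still at 631 and Itgb2 at 193. The main laminin chains on the same scale were Lamc1 at 139, Lamb2 at 135 and, far below them, Lama5 at 31.7. Nid1 stood at 87.7 per kilobase. At the other end lay Itga11 at 3.82, Itgae at 2.81 and Itga2 at 2.47 per kilobase.

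**Figure D1:**
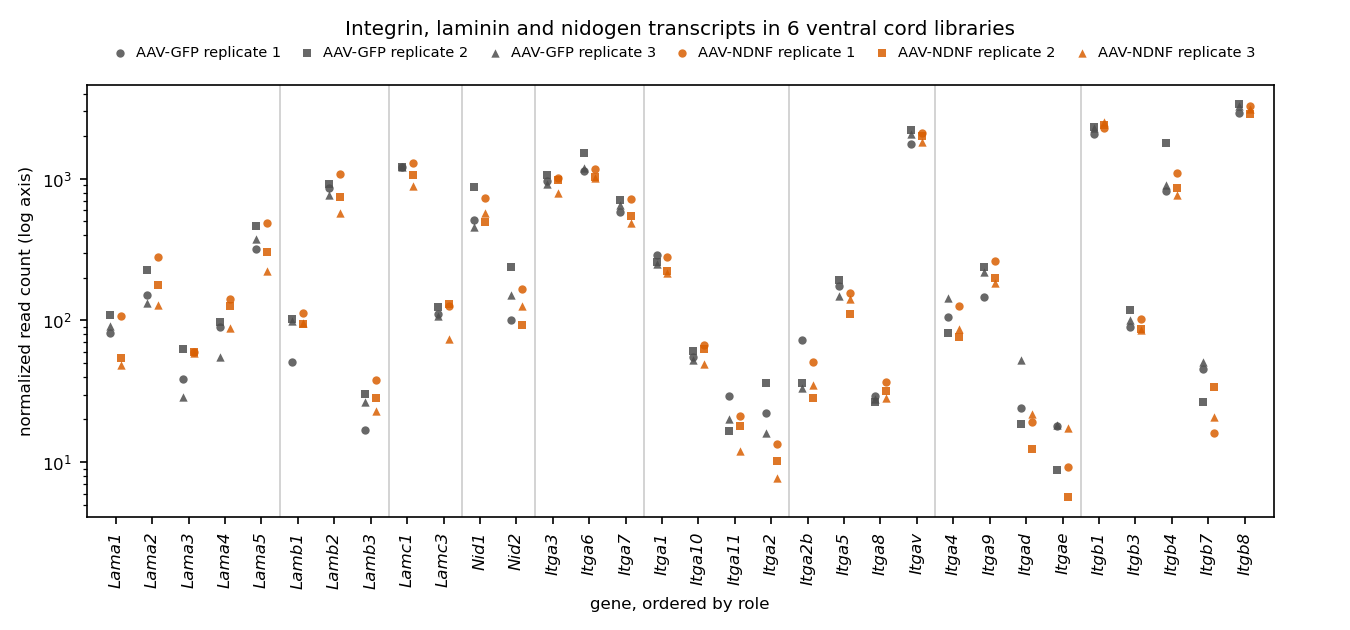
Normalized read count (log axis) of the 32 genes tested in each of the 6 libraries, ordered by role, with AAV-GFP in grey and AAV-NDNF in orange. Itgb8, Itgb1 and Itgav lie highest, and the grey and orange points of every gene except Itga2 overlap.

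None of the 32 genes that could be tested differed between AAV-NDNF and AAV-GFP after adjustment for all genes. The test was run for 32 of the 33. The smallest adjusted p among the 32 was 0.997 by limma and 0.990 by edgeR. Over all 17480 genes tested, limma called 0 genes, or 0%. At an unadjusted p under 0.05, 1 of the 32 was lower, Itga2, and 0 were higher. Over all genes the shares were 3.53% lower and 1.15% higher, so 1 gene in 32 is near the background. By edgeR, 1 of the 32 passed the same unadjusted limit, against 4.62% of all genes.

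Itga2 was also the only one of the 32 whose groups did not overlap. Over all genes, 5.5% did not overlap in the lower direction and 4.26% in the higher. The log2 fold changes of the 32 genes ran from −1.13 to 0.57, with a median of −0.16, and 22 of them lay below 0 (68.8%). Over all genes the median was 0.00 and 49.9% lay below 0. Between replicates, the median over the 32 genes varied with an SD of 0.17. Of the 20 integrins tested 16 lay below 0, of the 10 laminins 5 and of the 2 nidogens 1. In the authors' deposited table, 0 of the 33 genes had an adjusted p under 0.05, against 0.266% of 20315 genes. The choice of genes bears on that 0, since 3 of the 5 integrins it left out, Itgb5, Itgal and Itgb2, were under 0.05 in the authors' deposited table. In that table of the authors the smallest unadjusted p was 0.0496, for Itga2.

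**Figure D2:**
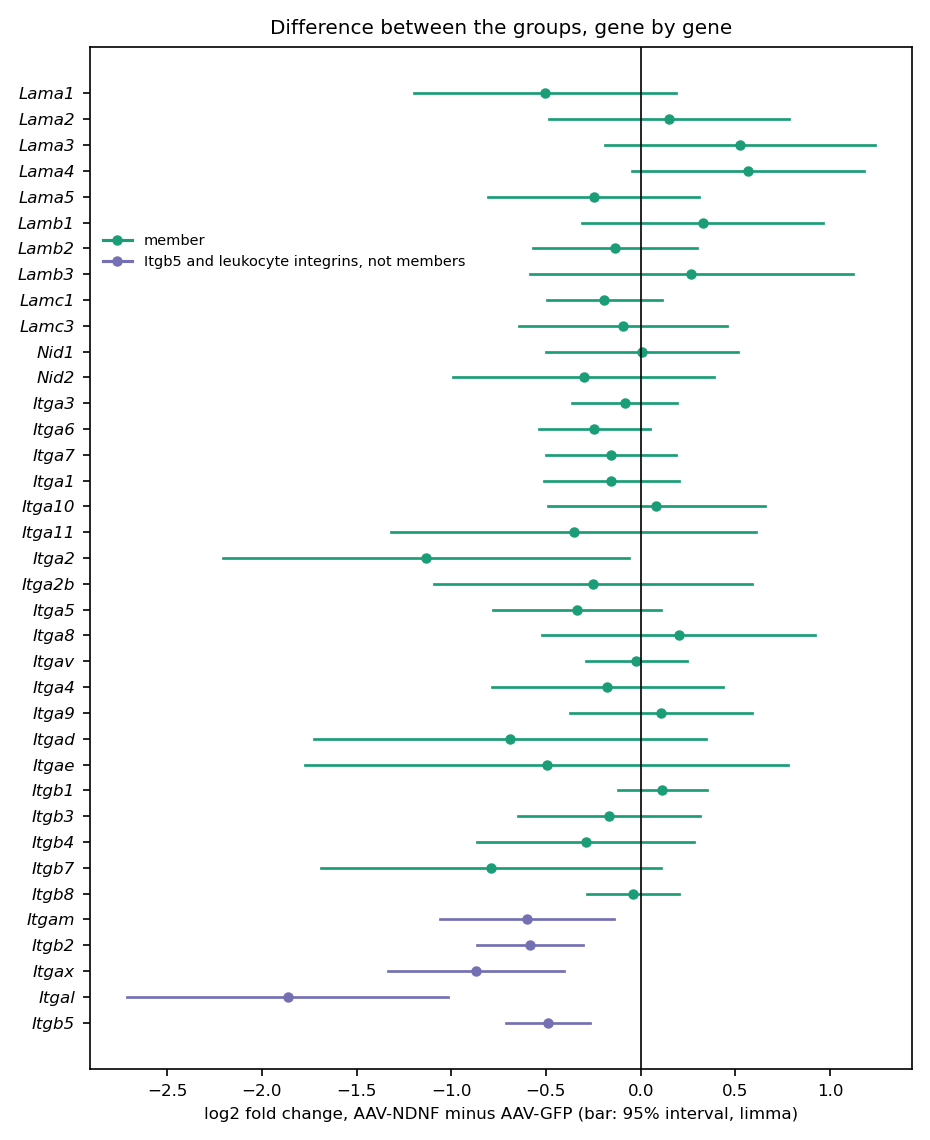
Log2 fold change of each gene, AAV-NDNF minus AAV-GFP, with its 95% interval from limma on the horizontal axis. Of the 32 genes tested (green), Itga2 alone has an interval that leaves out 0, while the 5 integrins that the choice of genes left out (purple) all do.

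For 10 genes the 95% interval of the fold change lay within 1.5-fold in either direction: Itga1, Itga3, Itga6, Itga7, Itgav, Itgb1, Itgb8, Lamb2, Lamc1 and Nid1. Itgb4 was not among them despite its level, with an interval from 0.550 to 1.22. For 22 of the 32 it lay within 2-fold. The 10 genes whose interval reached past 2-fold were Itga2, Itga2b, Itga11, Itgad, Itgae, Itgb7, Lama1, Lama3, Lama4 and Lamb3. The standard error was between 0.11 and 0.26 for the 10 genes with a mean of at least 500 normalized counts and between 0.33 and 0.58 for the 8 with a mean under 50.

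Among the laminin alpha chains, which carry the sites that integrins and dystroglycan bind, Lama5 was the highest. This chain is part of the laminins of mature vessels. Lama5 (chr2:180176373-180225859, minus strand, mm10) stood at 317, 462 and 376 normalized counts after AAV-GFP and at 486, 303 and 222 after AAV-NDNF. The AAV-NDNF libraries held both the highest and the lowest value, so the groups overlapped fully. The means were 385 ± 73.1 and 337 ± 135 (SD, n = 3 each), and the log2 fold change was −0.25 (SE 0.25).

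Lama4 (chr10:38965515-39110188, plus strand), the other alpha chain of vessel laminins, stood at 90.2, 96.8 and 55.5 after AAV-GFP and at 141, 127 and 88.7 after AAV-NDNF. AAV-NDNF replicates 1 and 2 lay above every control and replicate 3 among them. The means were 80.8 ± 22.1 and 119 ± 27.2 (SD, n = 3 each), and the log2 fold change of 0.57 (SE 0.28) was the highest of the 32, with a 95% interval from −0.05 to 1.18. That interval holds 0.

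Lama1 (chr17:67697259-67822647, plus strand), the alpha chain of early and pial basement membranes, stood at 82.1, 109 and 90.8 after AAV-GFP and at 108, 54.1 and 48.2 after AAV-NDNF. Here AAV-NDNF replicate 1 lay among the controls and the other two below them. The log2 fold change was −0.51 (SE 0.31). Lama2, the chain of Schwann cell, muscle and astrocyte basement membranes, had means of 171 ± 49.95 and 195 ± 77.1 (SD, n = 3 each) and overlapping groups. Lama3, known from the laminin of epithelial anchoring, stood at 38.4, 62.5 and 28.8 after AAV-GFP and at 59.7, 59.7 and 59.1 after AAV-NDNF, a log2 fold change of 0.52 (SE 0.32). The 3 AAV-NDNF values of Lama3 were nearly equal and lay just under the highest control.

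Within the alpha class, 3 of the 5 chains had shares that did not overlap between the groups, while the levels of all 5 overlapped. Lama5 made up 49.1%, 51.0% and 57.1% of the laminin alpha level after AAV-GFP and 48.4%, 45.0% and 43.2% after AAV-NDNF, means of 52.4 ± 4.16% and 45.5 ± 2.65% (SD, n = 3 each). Lama1 made up 15.0%, 14.2% and 16.2% against 12.6%, 9.45% and 11.01%, and Lama4 made up 13.19%, 10.1% and 7.96% against 13.28%, 17.8% and 16.3%. Lama5 and Lama1 thus took smaller shares and Lama4 larger ones, Lama4 by the narrowest margin, and the Lama4 shares overlapped once counts were not divided by length. Shares of 1 class sum to 100%, so they are not independent. No test was run on the shares. Of all 33 within-class shares, 3 were lower without overlap (Lama1, Lama5, Itga2) and 3 higher (Lama4, Lamb3, Itga8). Without division by length, 4 were lower (Lama1, Lama5, Itgb3, Itga2) and 2 higher (Lamb3, Itga8). Levels of single genes lay without overlap in 5.5% of cases below and in 4.26% above. Levels and shares are unlike measures, and a rate of non-overlap for shares in other gene classes was not computed.

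**Figure D3:**
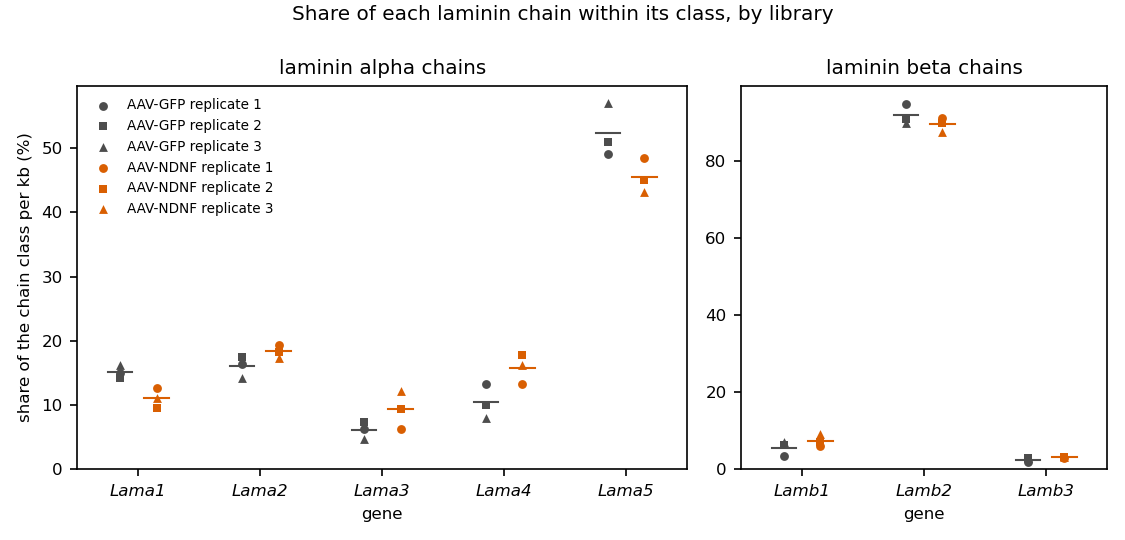
Share of each laminin alpha and beta chain in its class per kilobase of exon (vertical axis, percent) in each library, with AAV-GFP in grey, AAV-NDNF in orange and a line at each group mean. The orange Lama5 and Lama1 points lie below the grey ones, and Lamb2 dominates the beta class in every library.

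The beta class had 1 main chain. Lamb2, the beta chain of vessel, synaptic and pial laminins, made up 87.7% to 94.8% of the beta class per kilobase. Its counts were 859.7, 921 and 768 after AAV-GFP and 1078, 747 and 571 after AAV-NDNF, which overlapped, with a log2 fold change of −0.13 (SE 0.20).

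Lamc1, the gamma chain of most laminins, was nearly constant in the controls, at 1219.5, 1216 and 1221 normalized counts, and spread widely after AAV-NDNF, at 1288, 1064 and 886. AAV-NDNF replicate 1 lay above the controls and replicates 2 and 3 below. The means were 1219 ± 2.66 and 1079.6 ± 202 (SD, n = 3 each), and the log2 fold change was −0.19 (SE 0.14).

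The levels of the minor chains also overlapped between the groups. Lamb1, the beta chain of other laminins, had means of 84.3 ± 29.0 and 102 ± 10.5. Those of Lamb3, the beta chain of epithelial anchoring laminin, were 24.7 ± 6.90 and 29.7 ± 7.54 (SD, n = 3 each). Lamc3, a gamma chain of pial and retinal basement membranes, had means of 115 ± 9.23 and 110.4 ± 31.2.

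The nidogens followed single libraries. Nid1 (chr13:13437551-13512269) stood at 514, 882 and 454 normalized counts after AAV-GFP and at 731, 494 and 577 after AAV-NDNF. The highest value was in AAV-GFP replicate 2 and the lowest in AAV-GFP replicate 3, with all AAV-NDNF values between them. The means were 617 ± 232 and 601 ± 120.0 (SD, n = 3 each), and the log2 fold change was 0.01 (SE 0.23). Nid2 (chr14:19751265-19811787), the second nidogen, stood at 101, 238 and 152 against 167, 92.3 and 126, a log2 fold change of −0.30 (SE 0.31). AAV-GFP replicate 2 was again the highest, and the groups overlapped. Of the exon bases of Nid2, 8.45% are shared with Rtraf on the other strand, and the strand setting of the counting is not given in the sources used here. The same limit holds for Itgad (8.6% and 1.55%, with different genes), Itga4 (8.04%), Lamc3 (6.27%), Itgav (5.9%) and Itga8 (5.05%), and for others at lower shares.

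The laminin-binding integrins are Itga3, Itga6 and Itga7, which pair with Itgb1, and the pair of Itga6 with Itgb4, which anchors cells to intermediate filaments and is found on endothelium and Schwann cells. Itga3 was the highest of these 3 alpha chains per kilobase, at 168, and had 963, 1062 and 926 normalized counts after AAV-GFP and 1012, 985 and 799.6 after AAV-NDNF. The groups overlapped, and the log2 fold change was −0.08 (SE 0.13). Itga6 (chr2:71745616-71858416, plus strand) stood at 1133, 1511 and 1189 against 1178, 1028 and 1009, with means of 1278 ± 204 and 1072 ± 92.3 (SD, n = 3 each) and a log2 fold change of −0.25 (SE 0.13). Only AAV-NDNF replicate 1 of Itga6 reached into the control range. Itga7, a laminin receptor of muscle and perivascular cells, had means of 649 ± 65.7 and 588 ± 120.5 (SD, n = 3 each).

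Itgb4 (chr11:115974709-116008412, plus strand) stood at 824, 1782 and 911 normalized counts after AAV-GFP and at 1104, 862 and 768 after AAV-NDNF. The value of AAV-GFP replicate 2 was far above the other 5 libraries, which overlapped. The means were 1172 ± 529 and 911 ± 174 (SD, n = 3 each), and the log2 fold change was −0.29 (SE 0.26). The ratio of Itgb4 to its partner Itga6 in counts was 1.18 in AAV-GFP replicate 2 and between 0.727 and 0.938 in the other 5 libraries. Schwann cell markers, of which 5 of 6 were in the table and 3 reached a mean of 5, summed to 1027, 1193 and 878 after AAV-GFP and to 994, 851 and 731 after AAV-NDNF, highest in the same library. Oligodendrocyte markers were highest there too, at 697510 against 507000 to 567120 in the other 5 libraries, as were astrocyte markers at 214050 and oligodendrocyte precursor markers at 7685. The part of these cells in the Itgb4 value was not tested.

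The collagen-binding integrins are Itga1, Itga2, Itga10 and Itga11, which all pair with Itgb1. Itga2 (chr13:114833081-114932100, minus strand), a collagen receptor of platelets and epithelium and the neighbour of Itga1 on the chromosome, stood at 22.3, 36.2 and 16.02 normalized counts after AAV-GFP and at 13.5, 10.1 and 7.67 after AAV-NDNF. Every control lay above every AAV-NDNF library, the nearest pair being 16.02 and 13.5. The means were 24.8 ± 10.3 and 10.4 ± 2.90 (SD, n = 3 each), and the log2 fold change was −1.13 (SE 0.49), with a 95% interval from −2.21 to −0.06.

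For Itga2 the unadjusted limma p was 0.0403, the adjusted p was 0.997 and the two-sided exact permutation p was 0.1, the smallest that 3 against 3 libraries allow. The unadjusted limma p of Itga2 rose to 0.163 without AAV-GFP replicate 2, where the log2 fold change was −0.83. It was 0.0782 without AAV-GFP replicate 1, 0.0690 without AAV-NDNF replicate 2 and 0.0938 without AAV-NDNF replicate 3. Platelet markers, of which 4 of 7 were in the table and 1 reached a mean of 5, were near the floor. They summed to between 8.03 and 26.7 in AAV-GFP and between 10.9 and 29.3 in AAV-NDNF and overlapped. Sums this low cannot show whether the platelet content differed.

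Itga2, the only chosen gene past the unadjusted limma limit, is shown beside Itgav, the alpha chain with the highest level per kilobase. The number of such genes was near the background, as stated above, so Itga2 serves only as an illustration. The 250 bases before the RefSeq start (GRCm38.p6) of Itga2 and of Itgav are given 5′ to 3′ on the coding strand. The Itga2 window is chr13:114932101-114932350 (minus strand) and the Itgav window chr2:83724147-83724396 (plus strand), and no annotated gene lies over either. Nothing is in capitals because no motif searched was found.
Itga2: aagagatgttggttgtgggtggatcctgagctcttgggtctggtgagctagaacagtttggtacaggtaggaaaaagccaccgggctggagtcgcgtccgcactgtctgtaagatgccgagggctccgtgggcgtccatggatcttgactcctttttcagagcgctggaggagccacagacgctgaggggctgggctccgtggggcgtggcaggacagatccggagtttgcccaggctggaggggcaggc
Itgav: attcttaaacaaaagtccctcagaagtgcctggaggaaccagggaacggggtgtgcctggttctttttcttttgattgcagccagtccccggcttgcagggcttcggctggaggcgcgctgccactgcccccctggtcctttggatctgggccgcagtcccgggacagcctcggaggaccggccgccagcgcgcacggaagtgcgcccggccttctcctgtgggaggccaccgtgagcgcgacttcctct
The GC content was 60.8% for Itga2 and 64.4% for Itgav, against a median of 52.4% over the same stretch of 32851 promoters in the RefSeq table. The motifs searched, on both strands, were the GC box with the letters GGGCGG, the TATA box with TATAAA, and the CCAAT box, and neither window held any of them. The same stretch held a GC box in 32.7% of all promoters, a TATA box in 12.4% and a CCAAT box in 33.8%. A promoter entry was at hand for 20 of the 33 genes, 22 promoters in all, of which 8 held a GC box, 0 a TATA box and 4 a CCAAT box.

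The other collagen receptors overlapped between the groups. Itga1, the collagen IV receptor of vessel walls, stood at 287, 258 and 251 normalized counts after AAV-GFP and at 280.1, 222 and 217 after AAV-NDNF, a log2 fold change of −0.15 (SE 0.16). Itga10, a chondrocyte receptor, had means of 56.1 ± 4.18 and 59.9 ± 9.41, and Itga11, a fibroblast receptor of fibrillar collagen, 22.1 ± 6.62 and 17.0 ± 4.57 (SD, n = 3 each). Itga10 shares 33.5% of its exon bases with Gm42957 on the same strand, so its counts are uncertain.

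The integrins that bind the arginine-glycine-aspartate motif of fibronectin, vitronectin and latent TGF-beta are Itgav, Itga5, Itga8 and Itga2b. Itgav (chr2:83724397-83806916, plus strand) stood at 1755, 2224 and 2079.6 normalized counts after AAV-GFP and at 2090.0, 2019 and 1830.4 after AAV-NDNF. The AAV-NDNF values all lay inside the control range, and the log2 fold change was −0.02 (SE 0.12). Its partner Itgb8, which with Itgav releases TGF-beta from its latent form and is made by astrocytes and neurons, stood at 2910.3, 3366 and 3248 against 3273, 2854 and 3126. Itgb8 means were 3175 ± 236 and 3084 ± 213 (SD, n = 3 each), and the log2 fold change was −0.04 (SE 0.11). The ratio of Itgb8 to Itgav in counts was between 1.41 and 1.71 in all 6 libraries, with overlapping groups.

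Itga5, the fibronectin receptor that vessels use in remodelling, stood at 174, 193 and 149.5 normalized counts after AAV-GFP and at 157, 110.4 and 142 after AAV-NDNF. AAV-NDNF replicate 1 reached into the control range, and the log2 fold change was −0.34 (SE 0.20). Itga8, a receptor of mesenchymal cells, had means of 27.9 ± 1.54 and 32.3 ± 4.32, and Itga2b, the fibrinogen receptor chain of platelets, 47.2 ± 21.8 and 38.2 ± 11.9 (SD, n = 3 each). Itgb3, the partner of Itga2b and Itgav, had means of 103 ± 14.7 and 91.6 ± 9.56 and overlapped.

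**Figure D4:**
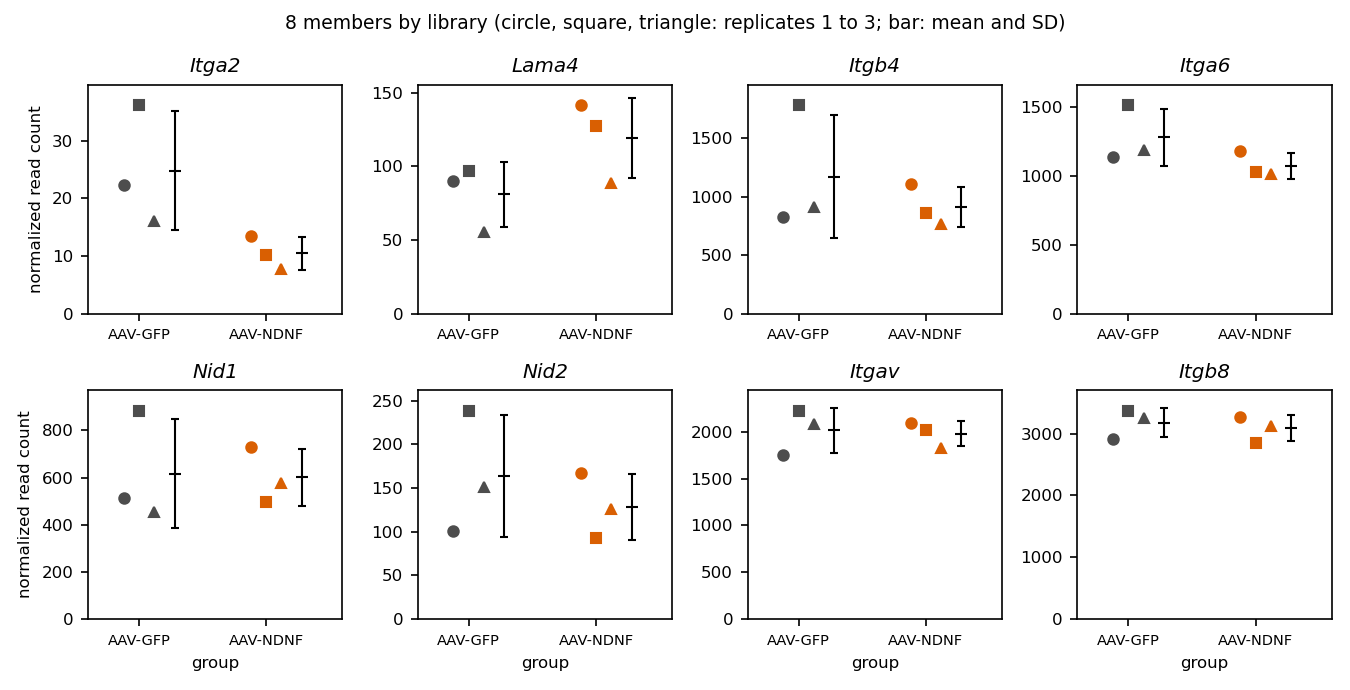
Normalized read counts of 8 genes in each library (vertical axes from 0), with circle, square and triangle for replicates 1 to 3 and a bar for the mean and SD of each group. The Itga2 groups do not overlap, and AAV-GFP replicate 2 (grey square) is highest for every gene shown except Lama4.

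Itgb1 (chr8:128685654-128733200, plus strand), the shared partner of most alpha chains listed here, stood at 2061, 2331 and 2271 normalized counts after AAV-GFP and at 2271, 2400.0 and 2531 after AAV-NDNF. Its means were 2221 ± 141 and 2401 ± 130.3 (SD, n = 3 each), and the log2 fold change was 0.11 (SE 0.11). The 95% interval of the fold change ran from 0.919 to 1.27. Itgb1 made up 53.0 ± 3.27% of the level of the 5 beta chains per kilobase after AAV-GFP and 57.6 ± 3.29% after AAV-NDNF (SD, n = 3 each).

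The leukocyte and alpha 4/9 group holds Itga4, Itga9, Itgad and Itgae, with Itgb7 as partner of Itga4 and Itgae on lymphocytes. Itgb7 stood at 45.5, 26.4 and 51.3 normalized counts after AAV-GFP and at 15.98, 33.8 and 20.8 after AAV-NDNF, a log2 fold change of −0.79 (SE 0.41). AAV-GFP replicate 2 lay below AAV-NDNF replicate 2, so the groups overlapped. Itgad, a leukocyte chain that pairs with Itgb2, stood at 24.1, 18.6 and 52.3 against 19.3, 12.4 and 21.9, and AAV-GFP replicate 3 was far above the rest. Itgae, the chain of resident T cells in epithelium, had means of 14.9 ± 5.32 and 10.8 ± 6.10 (SD, n = 3 each).

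Itga9, a tenascin and osteopontin receptor, stood at 147, 238 and 220.0 normalized counts after AAV-GFP and at 262, 200.5 and 184 after AAV-NDNF, and was the highest of this group. The log2 fold change of Itga9 was 0.11 (SE 0.22), with overlapping values. Itga4, the chain by which leukocytes bind vessel walls, had means of 110.2 ± 31.8 and 97.1 ± 26.5 (SD, n = 3 each).

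Beside these values, 8 of 8 T cell markers in the table summed to 204, 99.7 and 145 after AAV-GFP and to 94.2, 77.7 and 82.2 after AAV-NDNF. The 10 microglia markers summed to between 20338 and 21684 after AAV-GFP and between 14390 and 17314 after AAV-NDNF, all 10 with a log2 fold change below 0 and 6 at an unadjusted limma p under 0.05. The part of these cells in the values of Itgb7, Itgad and Itgae was not tested.

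The 5 integrins left out of the choice had been left out with earlier results of these data known, so their values are given as a description. Itgb5, the beta chain of a vitronectin receptor of microglia and other cells, had means of 2621 ± 103 and 1864 ± 51.0 normalized counts (SD, n = 3 each) and Itgal, a lymphocyte chain, 55.8 ± 5.27 and 15.5 ± 7.11. Itgam had means of 225 ± 55.1 and 145 ± 11.9, Itgax of 428 ± 58.6 and 239 ± 64.3, and Itgb2, their shared beta chain, of 706 ± 65.2 and 471 ± 39.3. All 5 lay without overlap below the controls, as did 5.5% of all genes tested. As these 5 were set apart with earlier results known, that count is not a result about them. The adjusted p in the authors' deposited table was 0.00962 for Itgb5, 0.0350 for Itgal, 0.0492 for Itgb2, 0.0568 for Itgax and 0.629 for Itgam. Whether they differ in this from the 33 genes was not tested.

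Many of the genes shared the libraries in which they were highest or lowest. AAV-GFP replicate 2 held the highest value of 12 of the 32 tested genes (37.5%, against 20.8% of all genes), and AAV-NDNF replicate 1 of 11 (34.4%, against 17.5%). AAV-NDNF replicate 3 held the lowest value of 15 (46.9%, against 26.3%). Summed laminin counts were 2949, 3369 and 2914 after AAV-GFP and 3722, 2794 and 2204 after AAV-NDNF. The highest and the lowest sum were both AAV-NDNF libraries, replicates 1 and 3. Ndnf stood at 5286, 7077 and 674 in AAV-NDNF replicates 1 to 3, an order that differs from that of the laminin sums. A link between Ndnf and the laminin sums was not tested. Summed nidogen counts were 615, 1121 and 606 against 898, 587 and 703.

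Markers of cells that make basement membrane did not all follow the laminins. The 13 endothelial markers summed to 6764, 7495 and 6729 after AAV-GFP and to 7577, 7530 and 5969 after AAV-NDNF, highest in AAV-NDNF replicate 1 and lowest in replicate 3, as for the laminins. Single endothelial markers were split, with 8 log2 fold changes below 0 and 5 above. At an unadjusted limma p under 0.05, Cldn5 was lower (−0.46) and Ly6c1 higher (0.36). The 9 mural cell markers summed to 5544, 6010 and 5496 after AAV-GFP and to 6211, 6887 and 5579 after AAV-NDNF, highest in AAV-NDNF replicate 2. The 10 fibroblast markers summed to 1125, 1103 and 1111 after AAV-GFP and 1068, 1087 and 1236 after AAV-NDNF. Their sum was lowest in AAV-NDNF replicate 1 and highest in replicate 3, the reverse of the laminin sums. Gene by gene the order differed. The median log2 deviation of fibroblast markers from their mean over the libraries was highest in AAV-GFP replicate 2 (0.26) and lowest in AAV-NDNF replicate 2 (−0.18). Of 8 fibroblast markers tested, 6 had a log2 fold change below 0 and 2 above. These marker sums thus differed in order from each other. The 8 astrocyte markers summed to between 167490 and 214050 after AAV-GFP and between 144700 and 171060 after AAV-NDNF. All 8 had a log2 fold change below 0, with a median of −0.13, and 1, Gfap, was lower at an unadjusted limma p under 0.05. Among all genes tested, 3.53% were lower and 1.15% higher at that limit. The part of these cells in the laminin, nidogen and integrin values was not tested.

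**Figure D5:**
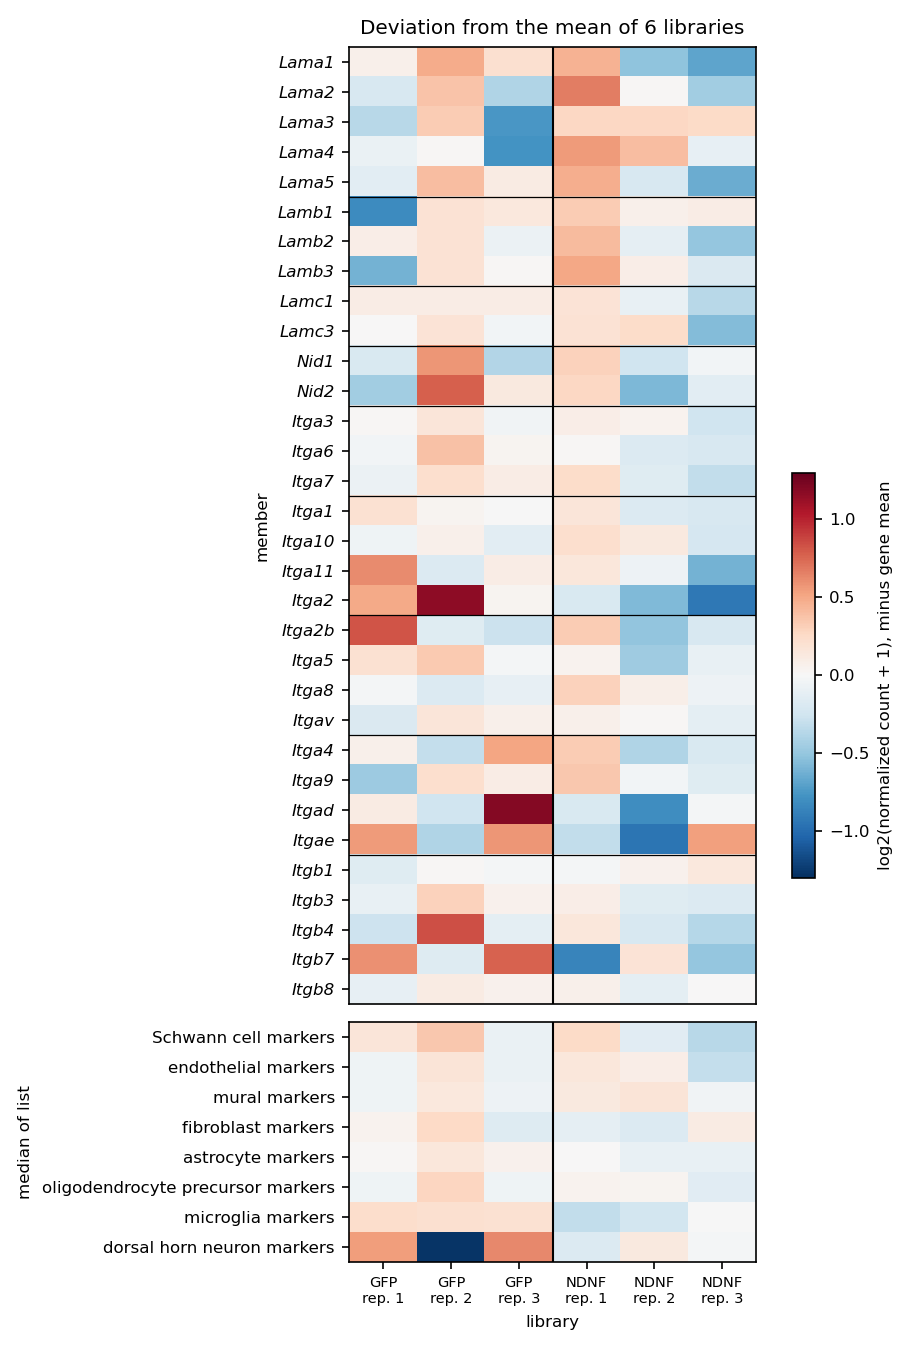
Difference of each tested gene's log2(normalized count + 1) from its mean over the 6 libraries (upper panel, colour) and the median of the same difference over marker lists (lower panel). AAV-GFP replicate 2 and AAV-NDNF replicate 1 are mostly red and AAV-NDNF replicate 3 mostly blue among laminins. The medians of Schwann cell, endothelial, mural, oligodendrocyte precursor and astrocyte markers share these signs, the last barely in AAV-NDNF replicate 1 (0.0013). Fibroblast markers share the sign in AAV-GFP replicate 2 (0.26) but not in AAV-NDNF replicates 1 and 3 (−0.12 and 0.10). Microglia and dorsal horn neuron markers do not share all of the signs.

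Which genes passed the unadjusted limit changed with the library left out. Without AAV-NDNF replicate 1, 7 of the 32 genes (21.9%) had an unadjusted limma p under 0.05. All 7 were lower: Itga2, Itga6, Itga7, Lama1, Lama5, Lamb2 and Lamc1. Among all 17206 genes of that fit, 8.79% passed in either direction, and 958 genes passed in the lower direction. The log2 fold change in that fit was −0.86 for Lama1, −0.55 for Lama5, −0.38 for Lamb2 and −0.33 for Lamc1. Without AAV-GFP replicate 2, 3 genes passed, against 4.65% of all genes, with Itgb7 lower at −1.07 and Lama3 and Lama4 higher at 0.82 and 0.72. In each of the other 4 such fits at most 1 gene passed. Among all genes, between 532 of 17202 and 1131 of 17254 passed there. No gene of the 32 had an adjusted p under 0.05 in any fit without a library.

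Around these chains, other genes of the matrix and adhesion system were counted by lists. Of 23 basement membrane partners, such as collagen IV chains and perlecan, 20 lay below 0, with a median log2 fold change of −0.13 and a range from −0.82 to 0.39, and 0 passed even an unadjusted p under 0.05. Of 22 dystroglycan complex genes and other laminin receptors, 12 lay below 0, with a median of −0.02 and 0 past that limit. None of the genes in the 5 lists given here had an adjusted limma p under 0.05. Over all 17480 genes tested limma called 0, so that 0 does not set the lists apart.

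Of 30 tested genes of the adhesion complex on the inner side of integrins, 23 lay below 0, the median was −0.12 and 4 were lower at an unadjusted p under 0.05. These were Ptk2b, a kinase of adhesions, with means of 292 ± 16.6 and 210 ± 41.4 normalized counts (SD, n = 3 each), Tns3, a tensin, with 3218 ± 155 and 2569 ± 340, Vcl, vinculin, with 1630 ± 88.5 and 1364 ± 104, and Fermt3, the kindlin of blood cells, with 218 ± 16.5 and 169 ± 11.8. Of 18 other integrin ligands, 14 lay below 0 and 1 was lower at that limit, Thbs2, thrombospondin 2, with means of 1060 ± 75.7 and 854 ± 41.8.

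Of 17 genes of TGF-beta and its integrin-activated store, 14 lay below 0, with a median of −0.13, and 3 were lower at an unadjusted p under 0.05. Nrros, which holds latent TGF-beta on microglia, had means of 213 ± 21.4 and 133 ± 9.05 normalized counts (SD, n = 3 each), and the receptors Tgfbr2 and Tgfbr1 had 936 ± 11.99 and 719 ± 99.3, and 1276 ± 71.4 and 1063 ± 66.4. The log2 fold change of Nrros was −0.67 (SE 0.17), with an adjusted limma p of 0.53. The share of all genes at that limit was 3.53% in the lower direction. Fermt3 and Nrros are genes of blood and microglial cells, whose marker sums are given above, and the part of those cells in the list values was not tested.

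With 3 libraries a group, exact permutation of a single gene cannot go below p = 0.1, and the low chains carry wide intervals. The labels call the libraries biological replicates without naming animals, so p-values measure the spread between these samples.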

How the data were processed

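Polyadenylated RNA of 6 ventral lumbar cord samples was sequenced on a NovaSeq machine, as the labels' protocols state. Tools named in the submitters' processing notes are cutadapt, HISAT2, HTSeq and DESeq2, with build mm10. Versions, strand setting and annotation are not given in the sources used here.

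Per the file headers and values, the deposited per-sample columns are a normalized signal, read counts divided by 1 size factor per library. Whole reads were recovered for 100% of values (tolerance 0.001). The authors also deposited log2 fold changes, the Wald score and DESeq2 p-values. limma 3.58.1 (trend, robust variances; R 4.3.3) was fitted on log2(normalized count + 1). The fit held the 17480 genes that reached 10 normalized counts in 3 or more libraries. Tests were two-sided, with Benjamini-Hochberg adjustment over all of these genes. Genes under an adjusted p of 0.05 were called. The pseudocount makes fold changes of low genes smaller. A list is described by counts and its median, with no set test.

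Alternatives were TMM and upper quartile scaling, other filters and pseudocounts, edgeR 4.0.16 and DESeq2 1.42.0 on recovered reads, a replicate block and leaving out each library. The limma script was tested on simulated data. Levels per kilobase use the summed exon length of GENCODE M21 (mm10), which held 27638 of 28162 symbols (98.1%). Promoters come from RefSeq GRCm38.p6, and plots were drawn with matplotlib 3.10.9.

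The genes and lists were chosen with earlier results of these data known. Named were the 32 genes tested, and 1 gene is not reported here. Values are given in every library for genes past an unadjusted p of 0.05, without overlap or highest in their role, and for others the results turn on. Of each list, up to 4 genes with the smallest unadjusted p under 0.05 were named.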

Additional observations from a re-analysis of the deposited data

How the results depend on the processing

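No gene of the 32 was called under any alternative that tested it, and the smallest adjusted p was 0.474 (limma, Lama1 without AAV-NDNF replicate 1). Of 469 values under alternatives, 445 kept their direction and 24 turned, 21 of these when a library was left out, and 18 genes kept their direction in every fit that tested them (Itgae, for example, was not tested in 3 of the 6 fits without a library). The median log2 fold change ran from −0.29 to −0.04 when a library was left out. The number below 0 was lowest at 16 of 31 without AAV-NDNF replicate 3 and 16 of 24 with the filter at 50 counts, and highest at 26 of 32 without AAV-NDNF replicate 1. Nid1 (0.01) was −0.0070 with upper quartile scaling, −0.042 with edgeR and −0.037 with DESeq2. When a library was left out, log2 fold changes that turned ran from −0.48 to 0.095 for Itga2b, −0.12 to 0.049 for Itgav, −0.0058 to 0.21 for Itga10, −0.15 to 0.024 for Itga3, −0.38 to 0.036 for Itga4, −0.10 to 0.24 for Itga9 and −0.50 to 0.056 for Itgb4. They ran from −0.10 to 0.014 for Itgb8, −0.14 to 0.41 for Lama2, −0.55 to 0.012 for Lama5, −0.38 to 0.083 for Lamb2, −0.24 to 0.17 for Lamc3, −0.18 to 0.30 for Nid1 and −0.60 to 0.014 for Nid2. Ndnf (4.27) was 4.83 with DESeq2 (adjusted p = 7.66e-05) and ran from 3.63 to 5.33 when a library was left out, called without AAV-NDNF replicate 3. The causes were not tested.

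Deviations of libraries with the same replicate number had correlations of −0.09, 0.05 and 0.08, against −0.15 to 0.125 for libraries with different numbers. No pairing by number was seen, but with 3 libraries a group these correlations cannot exclude one. With a replicate block, 0 of the 32 genes were called, 2 passed an unadjusted p of 0.05 (Itga2 and Lama4), as did 776 of all 17480 genes, and 22 lay below 0. Over all genes limma called 0, against 3 with no filter, 55 by DESeq2, 6 with the block, 43 without AAV-GFP replicate 2, 1 without AAV-NDNF replicate 1 and 11 without AAV-NDNF replicate 3. The filter at 50 counts left low genes such as Itga2 without a value. Standard errors were larger for low genes, and also for some abundant ones such as Itgb4 (0.26) and Nid1 (0.23).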
